A study of Mus musculus with 16 samples.

Results

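The TNF superfamily is a set of membrane-bound or shed ligands and their receptors through which immune cells exchange activation, survival and death signals. Transcripts of 10 genes of the family were followed in dendritic cells grown from mouse bone marrow: the ligands Tnf, Tnfsf4, Tnfsf9, Tnfsf10 and Tnfsf15 and the receptors Tnfrsf9, Tnfrsf1a, Tnfrsf1b, Cd40 and Fas. They were picked by symbol, with earlier results of these data known. Only probe sets that the platform annotation assigns to 1 gene were used, and each of the 10 had a single such probe set. They are 10 of the 19272 genes with such a probe set, of which 10236 were bright enough to be tested.

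Cells came from the marrow of C57BL/6 mice and were cultured with GM-CSF at 10 ng/mL. NaCl was added from day 3 to reach 450 mOsm/L, while other cultures stayed at the normal 290 mOsm/L. Cells were harvested on day 7 and plated for a further 6 h, with or without LPS at 10 ng/mL, the endotoxin of Gram-negative bacteria, which Tlr4 recognises. This gave 4 groups of 4 microarrays: 450 mOsm with LPS, 290 mOsm with LPS, 450 mOsm without LPS and 290 mOsm without LPS, in which replicates 1 to 4 came from the same 4 mice each time. No genetic change is labelled in any group, all groups share GM-CSF, and neither the age of the mice nor a sort of the cells is stated in the labels.

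The ligands of this family act as trimers that cluster their receptors. Receptors without a death domain, such as Tnfrsf9 and Cd40, bind TRAF adaptor proteins and lead to NF-kappaB and MAP kinase activity, while Fas and Tnfrsf1a carry a death domain that can also lead to caspase activation. In dendritic cells the family is best known for exchanges with T cells: Tnfsf4 and Tnfsf9 are displayed to T cells that carry the matching receptor, and Cd40 receives the signal of its ligand on activated T cells.

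Expression values are log2 levels from RMA, a method that sets the arrays to a common scale, so a difference of 1 is a doubling. A difference is given with its standard error, and an adjusted p is that of limma over the 10236 tested genes, called at 0.05. A gene was tested if its level was over 6.83, the overall median of the table, on 4 arrays or more, and all 10 members passed. Tnfsf4, Tnfsf9 and Tnfsf10 passed only through the 8 arrays with LPS, so they had to differ with LPS, and their low levels without it are compressed by the method. Levels of different genes come from different probes and are not set against each other.

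Array medians lay between 6.78 and 6.93. Without LPS they were 6.84 to 6.93 at 450 mOsm, all above the 6.81 to 6.83 at 290 mOsm. With LPS they overlapped, at 6.79 to 6.86 at 450 mOsm and 6.78 to 6.82 at 290 mOsm. The salt treatment was visible in Slc6a12, a transporter of organic osmolytes, which was 3.38 ± 0.07 higher at 450 mOsm without LPS, and LPS in Il6, which was 7.62 ± 0.09 higher at 290 mOsm. Of 13 dendritic cell markers on the array, 10 exceeded the filter level at 450 mOsm with LPS, 11 at 290 mOsm with LPS, 10 at 450 mOsm and 9 at 290 mOsm. Of the 11 tested, 1 rose and 2 fell with salt under LPS, and 1 rose and 2 fell without LPS. Under LPS the salt difference was -1.02 ± 0.10 for Flt3 and 0.42 ± 0.13 for Ccr7. Without LPS it was 0.84 ± 0.10 for Ciita and -0.72 ± 0.13 for Fscn1. Itgax had group means from 11.41 to 12.13, but Cd209a (5.88 to 6.34) and Xcr1 (5.57 to 6.19) were dim throughout. Markers of neutrophils, another product of GM-CSF cultures, were lower at 450 mOsm: 15 of 17 tested fell with LPS and 17 of 17 without it. The summed linear level of the 18 on the array was 16070 to 17063 at 450 mOsm with LPS, against 39125 to 48414 at 290 mOsm with LPS. Without LPS it was 5979 to 6682 at 450 mOsm, against 28372 to 37273 at 290 mOsm. Lcn2, which is in this sum, rose by 5.45 ± 0.15 with LPS at 450 mOsm. The sums with LPS are therefore no plain measure of neutrophils. Arrays give no true 0, but 8 of the 18 were above the filter level at 450 mOsm with LPS against 17 at 290 mOsm with LPS. Of mast cell and basophil markers, 3 of 6 tested fell with LPS (1 rose) and 6 of 6 without, with median salt differences of -1.20 and -1.13. Of 13 macrophage markers 8 fell with LPS (2 rose) and 6 without (3 rose), with small medians of -0.16 and -0.12. The neutrophil medians were -2.39 with LPS and -2.78 without. Among all genes 21.8% were called lower and 16.8% higher with salt under LPS, and 23.7% lower and 20.6% higher without LPS. Of 7 monocyte markers 1 rose and 3 fell with LPS, and 3 rose and 2 fell without. No NK cell marker exceeded the filter level in any group, and of 8 T cell markers on the array 4 were tested. With LPS none of these rose and 1 fell, and without LPS 2 rose and 1 fell. Cd4 fell by 0.88 with salt under LPS and by 1.29 without, and Cd28 rose by 1.32 ± 0.11 without LPS, with a difference of 0.11 ± 0.11 under LPS. The summed linear level of the 8 was 639 to 725 at 450 mOsm with LPS, against 784 to 956 at 290 mOsm with LPS, and 1493 to 1624 at 450 mOsm, against 1249 to 1389 at 290 mOsm without LPS. Cd3d (5.25 to 5.50) and Cd3g (4.81 to 5.02) were below the filter level in every group mean. The part of these markers in the salt differences that follow was not tested, and in such bulk cultures fewer cells of a type and less RNA per cell cannot be told apart.

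Among cultures given LPS, high salt went with higher transcript levels of the costimulatory ligands Tnfsf9 and Tnfsf4 and of Tnfrsf9, the receptor of Tnfsf9, and with slightly lower Cd40. Tnf, its receptors, Tnfsf10, Tnfsf15 and Fas did not pass the test in that comparison. Without LPS the members that changed were others in part: Tnf fell, and Tnfsf9, Tnfsf10, Tnfrsf9 and Fas rose. With LPS, 3 of the 10 members were higher and 1 was lower, and 6 were not called. Without LPS, 4 were higher, 1 was lower and 5 were not called. Changes were common in these arrays, since 38.6% of all tested genes were called for salt with LPS (16.8% higher, 21.8% lower) and 44.3% without LPS (20.6% higher, 23.7% lower). The counts of members called are therefore near the background. Groups at 450 and 290 mOsm did not overlap for 6 members with LPS, 4 higher and 2 lower, against 39.4% of all genes (17.1% higher, 22.3% lower). Without LPS they did not overlap for 5 members, 4 higher and 1 lower, against 36.8% (16.4% higher, 20.4% lower). A change of at least 2-fold with salt was seen in 3 members with LPS and 1 without, while 1.93% and 1.99% of all tested genes changed that much. The members were chosen with earlier results of these data known, so these shares are descriptions and no test of the family. The median difference of the 10 members was -0.01 with LPS and 0.11 without, against 0.00 for all genes in both.

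**Figure D1:**
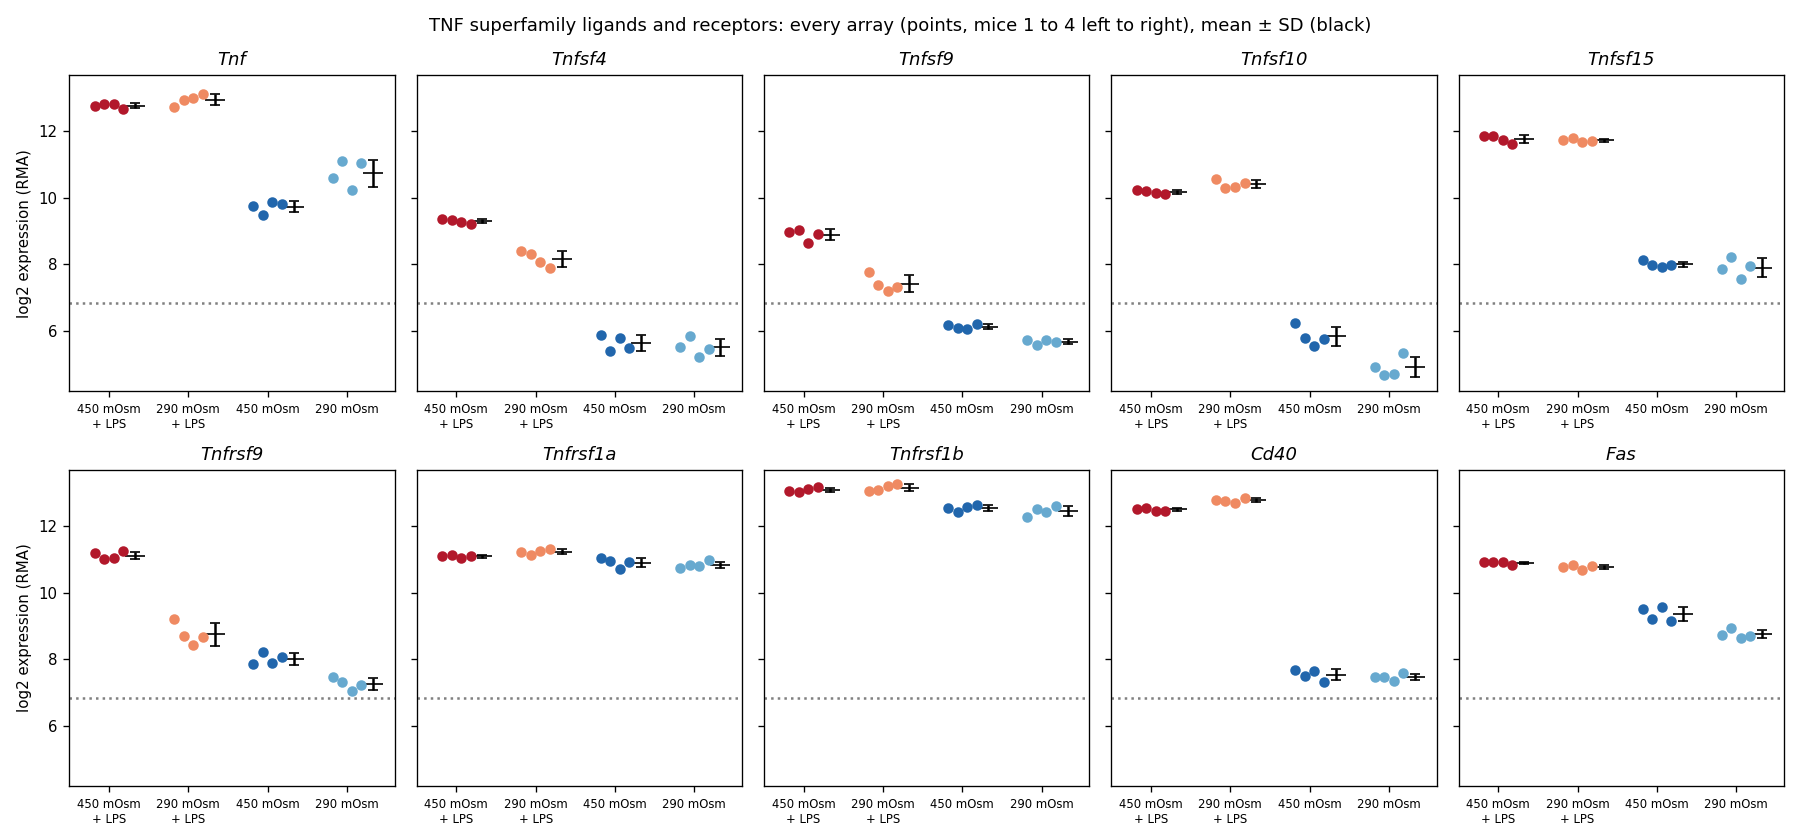
Log2 expression of the 10 genes on every array (vertical axis, log2 units), by group along the horizontal axis, with 1 point per mouse, the group mean ± SD in black and the filter level of 6.83 as a dotted line. Tnfrsf9, Tnfsf9 and Tnfsf4 were highest in all 4 arrays at 450 mOsm with LPS, as was Fas, barely, while Tnfsf15 and Cd40 split mainly by LPS.

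Tnfrsf9 encodes 4-1BB (CD137), a receptor that amplifies T cell responses and is also found on activated dendritic cells. RefSeq (GRCm38.p6) lists 2 transcription starts for it on the plus strand of chromosome 4, and the 250 bases before each are shown because this gene moved most with salt. The first window, chr4:150919905-150920154, holds TGGAAA, a core of the sequence bound by NFAT5, the transcription factor of the osmotic response, 221 bases before the start. The second, chr4:150927749-150927998, holds overlapping matches to the kappaB motif (GGG, a gap of 5 bases, CC) in the run GGGGATTTCCC, the first of them 43 bases before the start, and an AP-1 motif TGANTCA 15 bases before it. Capitals mark these matches, which describe the letters and are not shown to be used in these cells.
Tnfrsf9 first start: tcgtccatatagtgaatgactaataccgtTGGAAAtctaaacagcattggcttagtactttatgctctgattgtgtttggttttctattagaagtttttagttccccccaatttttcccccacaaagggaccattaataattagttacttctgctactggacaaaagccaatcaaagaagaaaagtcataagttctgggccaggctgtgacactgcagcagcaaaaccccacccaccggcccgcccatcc
Tnfrsf9 second start: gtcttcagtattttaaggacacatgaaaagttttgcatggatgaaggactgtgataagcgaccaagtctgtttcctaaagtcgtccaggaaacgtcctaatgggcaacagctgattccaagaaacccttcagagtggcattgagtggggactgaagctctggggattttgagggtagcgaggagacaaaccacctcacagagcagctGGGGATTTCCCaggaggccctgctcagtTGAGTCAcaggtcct
Across 32851 RefSeq windows of the same length, 45.8% held the kappaB motif, 18.6% TGGAAA and 6.75% the AP-1 motif, all searched on both strands.

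The level of Tnfrsf9 was 11.17, 11.00, 11.03 and 11.24 in mice 1 to 4 at 450 mOsm with LPS, against 9.21, 8.68, 8.42 and 8.66 at 290 mOsm with LPS. Every high-salt culture was above every normal one, by 1.96 to 2.61 within a mouse. The difference was 2.37 ± 0.13, a 5.16-fold increase (adjusted p = 2.84e-10), which ranked 6 from the highest among the 10236 genes. Without LPS the levels were 7.84, 8.21, 7.90 and 8.05 at 450 mOsm and 7.46, 7.30, 7.03 and 7.22 at 290 mOsm. These groups did not overlap either, but the difference was smaller at 0.75 ± 0.13, or 1.68-fold (adjusted p = 0.000203). Put the other way, LPS raised Tnfrsf9 8.63-fold at 450 mOsm and 2.81-fold at 290 mOsm. The interaction, that is the LPS difference at 450 mOsm minus that at 290 mOsm, was 1.62 ± 0.19 (adjusted p = 6.31e-06) and positive in 4 of 4 mice.

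Tnfsf9, or 4-1BB ligand, is the partner of Tnfrsf9. Its levels were 8.98, 9.04, 8.64 and 8.91 at 450 mOsm with LPS, against 7.78, 7.39, 7.20 and 7.33 at 290 mOsm with LPS. All high-salt cultures exceeded all normal ones, and the difference was 1.47 ± 0.10, a 2.77-fold increase (adjusted p = 5.04e-09). In the absence of LPS it had 6.17, 6.09, 6.05 and 6.20 at 450 mOsm and 5.73, 5.56, 5.72 and 5.67 at 290 mOsm, all below the filter level. The groups were still separate, with a difference of 0.46 ± 0.10 (adjusted p = 0.0015) on values that the method compresses. The interaction was 1.01 ± 0.14 (adjusted p = 5.47e-05) and positive in 4 of 4 mice.

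Tnfsf4, or OX40 ligand, costimulates T cells through Tnfrsf4. It reached 9.38, 9.32, 9.26 and 9.22 at 450 mOsm with LPS, against 8.39, 8.30, 8.06 and 7.88 at 290 mOsm with LPS, groups that did not overlap. The difference was 1.14 ± 0.13, or 2.20-fold (adjusted p = 1.69e-06). Without LPS the levels of 5.89, 5.39, 5.78 and 5.50 at 450 mOsm overlapped those of 5.51, 5.84, 5.23 and 5.46 at 290 mOsm. That difference, 0.13 ± 0.13, was not called (adjusted p = 0.413), and its sign turned when mouse 3 was left out. The interaction of 1.00 ± 0.18 was called (adjusted p = 0.000547), with every mouse above 0. The receptor Tnfrsf4, named here as the partner of a member after its values were seen, was dim with group means of 6.89 at 450 mOsm with LPS, 6.80 at 290 mOsm with LPS, 6.56 at 450 mOsm and 6.50 at 290 mOsm. Its salt differences of 0.09 with LPS and 0.05 without were not called.

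**Figure D2:**
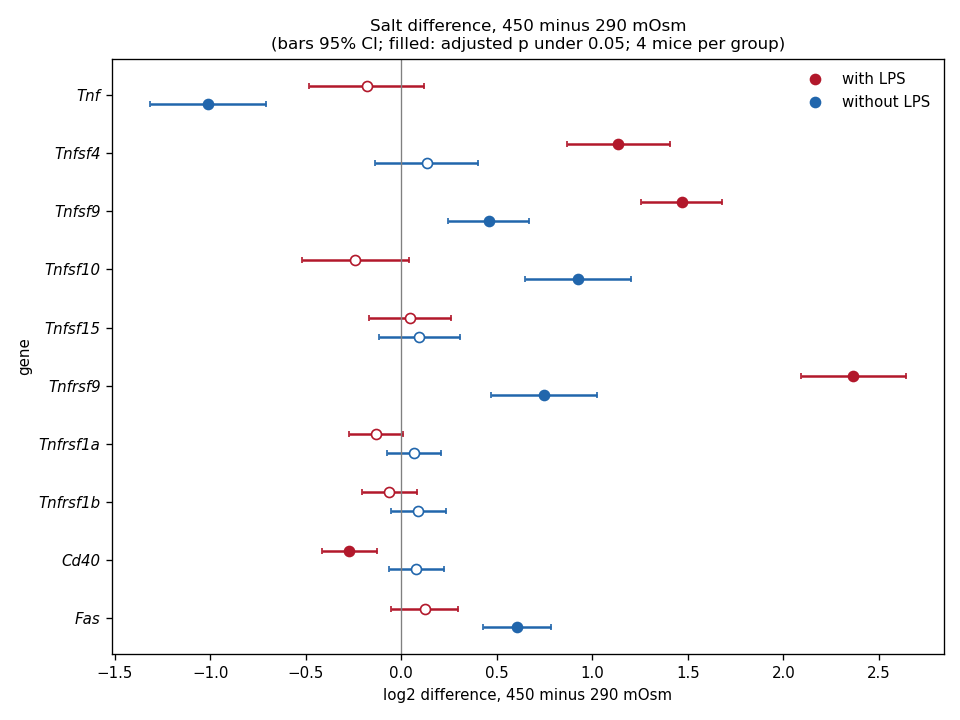
Salt differences (450 minus 290 mOsm, log2, horizontal axis) of the 10 genes, with LPS in one colour and without LPS in the other. Bars are 95% confidence intervals from 4 mice per group, and filled points have an adjusted p under 0.05. The largest point is Tnfrsf9 with LPS at 2.37, and Tnf without LPS is the lowest at -1.01.

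Tnf itself, the founding cytokine of the family and an early product of LPS-stimulated myeloid cells, was lower in salt without LPS. Its 250 bases upstream lie on the minus strand of chromosome 17, at chr17:35202008-35202257, and hold a kappaB match 194 bases before the start, followed by TTTCCA, the reverse complement of TGGAAA, at 181 bases. It is shown for comparison with Tnfrsf9, because Tnf was the one member that fell with salt in that comparison, and capitals mark the matches.
Tnf: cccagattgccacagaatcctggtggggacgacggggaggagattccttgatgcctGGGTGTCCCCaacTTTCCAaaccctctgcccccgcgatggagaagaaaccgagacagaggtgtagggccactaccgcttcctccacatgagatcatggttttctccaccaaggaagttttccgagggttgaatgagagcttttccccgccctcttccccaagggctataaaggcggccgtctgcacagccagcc

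At rest, Tnf stood at 9.75, 9.49, 9.86 and 9.81 at 450 mOsm and at 10.60, 11.10, 10.23 and 11.04 at 290 mOsm. Salt cultures were below every normal culture, and the difference of -1.01 ± 0.14 made Tnf 2.02-fold lower (adjusted p = 2.42e-05), in 4 of 4 mice. With LPS the levels were 12.76, 12.81, 12.83 and 12.66 at 450 mOsm and 12.72, 12.93, 13.01 and 13.12 at 290 mOsm. These ranges overlapped, and the difference of -0.18 ± 0.14 was not called (adjusted p = 0.335, lower in 3 of 4 mice, 95% interval from -0.48 to 0.12). LPS raised Tnf by 3.04 ± 0.14 at 450 mOsm and by 2.21 ± 0.14 at 290 mOsm, an interaction of 0.83 ± 0.20 (adjusted p = 0.00641). Without mouse 2 the interaction was 0.61 and no longer called (adjusted p = 0.0843). The neutrophil markers were lower in the same salt cultures, and their part in the Tnf level was not tested.

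Neither receptor of Tnf passed the test in a salt comparison. Tnfrsf1a, the death domain receptor found on most cells, had 11.08, 11.13, 11.04 and 11.10 at 450 mOsm with LPS, against 11.22, 11.12, 11.24 and 11.30 at 290 mOsm with LPS. The groups overlapped, and the difference of -0.13 ± 0.07 was not called (adjusted p = 0.133), nor was that of 0.07 ± 0.07 without LPS (adjusted p = 0.422), whose sign turned without mouse 1. Without LPS its levels were 11.03, 10.93, 10.70 and 10.92 at 450 mOsm and 10.73, 10.83, 10.80 and 10.97 at 290 mOsm. LPS raised it by 0.19 ± 0.07 at 450 mOsm (adjusted p = 0.0157) and by 0.39 ± 0.07 at 290 mOsm (adjusted p = 3.94e-05). The first depended on the scaling: it was 0.04 when the deposited values were quantile normalized again (adjusted p = 0.599) and 0.29 under cyclic loess (adjusted p = 0.000859). Without mouse 2, without mouse 3 and without the 450 mOsm array of mouse 3 it was 0.19, 0.14 and 0.13 and not called (adjusted p from 0.0598 to 0.084).

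Tnfrsf1b, the receptor without a death domain that is frequent on immune cells, ranged from 13.02 to 13.15 at 450 mOsm with LPS and from 13.06 to 13.26 at 290 mOsm with LPS, and from 12.41 to 12.63 and from 12.27 to 12.59 at the same osmolarities without LPS. Salt differences of -0.06 ± 0.07 with LPS and 0.09 ± 0.07 without were not called (adjusted p = 0.499 and 0.301). LPS raised it by 0.55 ± 0.07 at 450 mOsm and by 0.70 ± 0.07 at 290 mOsm, with no overlap between arrays with and without LPS.

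The death ligand Tnfsf10 and the death receptor Fas both rose with salt without LPS, while their salt differences with LPS were not called and their interactions were negative. Their upstream windows are shown because these members moved the same way, that of Tnfsf10 on the plus strand at chr3:27316827-27317076 and that of Fas on the plus strand at chr19:34290409-34290658. The Tnfsf10 window holds TTTCCA 134 bases before the start and no kappaB match, and the Fas window holds kappaB matches at 202 and 48 bases and an AP-1 match at 211 bases. Capitals mark the matches.
Tnfsf10: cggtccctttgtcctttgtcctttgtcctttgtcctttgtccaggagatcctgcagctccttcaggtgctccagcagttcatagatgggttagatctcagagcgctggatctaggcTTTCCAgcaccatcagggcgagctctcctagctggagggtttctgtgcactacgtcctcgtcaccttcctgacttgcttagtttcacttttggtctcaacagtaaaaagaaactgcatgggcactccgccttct
Fas: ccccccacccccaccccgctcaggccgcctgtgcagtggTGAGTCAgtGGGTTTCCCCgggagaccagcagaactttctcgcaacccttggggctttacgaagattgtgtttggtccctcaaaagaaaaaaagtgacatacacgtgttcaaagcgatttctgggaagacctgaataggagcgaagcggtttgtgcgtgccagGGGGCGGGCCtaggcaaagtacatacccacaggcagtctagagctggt
Promoter entries were found for 7 of the 10 members, in 8 windows, and not for Tnfsf4, Tnfsf9 and Cd40. Of the 8 windows 5 held the kappaB motif, 3 held TGGAAA and 2 held the AP-1 motif. The window of Tnfrsf1b held the interferon response motif, a pair of GAAA repeats with a gap of 2 bases, and was the only 1 of the 8 to do so. In all windows these motifs were present in 45.8%, 18.6%, 6.75% and 2.98%, in the same order.

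Tnfsf10 encodes TRAIL, a ligand that can start cell death through its receptor and that interferon induces. Without LPS its levels were 6.24, 5.79, 5.56 and 5.76 at 450 mOsm and 4.91, 4.69, 4.72 and 5.33 at 290 mOsm, separate groups that were all dim. The difference was 0.93 ± 0.13, or 1.90-fold (adjusted p = 2.64e-05). With LPS it had 10.24, 10.19, 10.14 and 10.11 at 450 mOsm and 10.56, 10.29, 10.33 and 10.45 at 290 mOsm. Salt cultures were now the lower ones in 4 of 4 mice without overlap, and the difference of -0.24 ± 0.13 was not called (adjusted p = 0.164). Its standard error is estimated over all 4 groups. The SD was 0.06 at 450 mOsm and 0.12 at 290 mOsm with LPS, against 0.29 and 0.30 without LPS. The difference with LPS was called when only the 2 groups with LPS were fitted (limma, adjusted p = 0.0116). LPS raised Tnfsf10 by 4.33 ± 0.13 at 450 mOsm and by 5.50 ± 0.13 at 290 mOsm on the log2 scale, and the interaction was -1.16 ± 0.19 (adjusted p = 0.000194). All of these are set against levels below the filter level, so they are not exact folds, and the interaction rests on the order of dim values. Tnfrsf10b, its death receptor in the mouse, was named after its values were seen and was below the filter level in every group mean, from 6.48 to 6.71.

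Fas, the receptor through which Fasl triggers apoptosis, had 9.51, 9.22, 9.56 and 9.14 at 450 mOsm without LPS, against 8.73, 8.94, 8.64 and 8.70 at 290 mOsm without LPS. All salt cultures were higher, by 0.61 ± 0.08 or 1.52-fold (adjusted p = 1.73e-05). With LPS its levels were 10.92, 10.91, 10.91 and 10.83 at 450 mOsm and 10.76, 10.83, 10.69 and 10.79 at 290 mOsm. The salt cultures again lay above, barely, with a difference of 0.12 ± 0.08 that was not called (adjusted p = 0.258). That standard error too is estimated over all 4 groups. The SD of Fas was 0.04 at 450 mOsm and 0.06 at 290 mOsm with LPS, against 0.21 and 0.13 without LPS. LPS raised Fas 2.89-fold at 450 mOsm and 4.04-fold at 290 mOsm, and the interaction was -0.48 ± 0.12 (adjusted p = 0.00635), and at -0.44 was of similar size but not called without mouse 1 (adjusted p = 0.0571). The ligand Fasl, also named after its values were seen, was dim with group means from 4.64 to 4.85.

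Tnfsf15, or TL1A, a ligand that costimulates T cells through Tnfrsf25, rose with LPS and passed neither salt test. It had 11.86, 11.86, 11.73 and 11.62 at 450 mOsm with LPS and 11.72, 11.79, 11.67 and 11.71 at 290 mOsm with LPS, which overlap. Without LPS it had 8.12, 7.97, 7.92 and 7.98 at 450 mOsm and 7.86, 8.23, 7.55 and 7.96 at 290 mOsm, which overlap too. Salt differences were 0.05 ± 0.10 with LPS (adjusted p = 0.748, 95% interval from -0.17 to 0.26) and 0.10 ± 0.10 without (adjusted p = 0.456), and the second turned its sign without the 290 mOsm array of mouse 3. The LPS differences were 3.77 ± 0.10 at 450 mOsm and 3.82 ± 0.10 at 290 mOsm. Tnfrsf25, named after its values were seen, was dim, from 5.73 to 5.96.

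Cd40, the receptor that licenses dendritic cells when T cells engage it, rose strongly with LPS, and salt cultures with LPS had slightly less of it. Its levels were 12.52, 12.55, 12.46 and 12.45 at 450 mOsm with LPS, against 12.77, 12.76, 12.70 and 12.85 at 290 mOsm with LPS. The groups did not overlap, and the difference was -0.27 ± 0.07, or 1.21-fold lower (adjusted p = 0.00421). Without LPS it had 7.66, 7.50, 7.65 and 7.33 at 450 mOsm and 7.46, 7.45, 7.34 and 7.57 at 290 mOsm, which overlap, and the difference of 0.08 ± 0.07 was not called (adjusted p = 0.364). Without mouse 4 it was 0.19 and was called (adjusted p = 0.0317). LPS raised it 31.1-fold at 450 mOsm and 39.7-fold at 290 mOsm. The interaction was -0.35 ± 0.10 (adjusted p = 0.0139). Leaving out mouse 1, 2 or 3 gave values of similar size, -0.32, -0.38 and -0.29, that were not called (adjusted p from 0.0639 to 0.0911). Its ligand Cd40lg, named after its values were seen, was dim, with group means from 4.54 to 4.71.

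All 10 members were called higher with LPS at both osmolarities, and the arrays with and without LPS did not overlap for any of them at either osmolarity. Of all tested genes 26.4% were called higher at 450 mOsm and 26.4% at 290 mOsm, and 24.4% and 24.5% were higher without overlap. Tnfsf4, Tnfsf9 and Tnfsf10 had to differ through the filter, as stated, and the members' medians of 3.07 at 450 mOsm and 2.11 at 290 mOsm are descriptions, beside -0.09 and -0.11 for all genes. The responses ranged at 450 mOsm from 0.19 for Tnfrsf1a to 4.96 for Cd40, and at 290 mOsm from 0.39 for Tnfrsf1a to 5.50 for Tnfsf10. The interaction was called for 7 of 10 members, 4 positive and 3 negative, against 21.1% of all genes (10.7% positive, 10.4% negative). The positive ones were Tnf, Tnfsf4, Tnfsf9 and Tnfrsf9, and the negative ones were Tnfsf10, Cd40 and Fas, of which Tnfsf4, Tnfsf9 and Tnfsf10 rest on dim levels without LPS. These comparisons share arrays, so their values are given side by side and not as separate support for each other. The members were also chosen with earlier results known, so the interaction count of 7 of 10 is a description and no test.

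**Figure D3:**
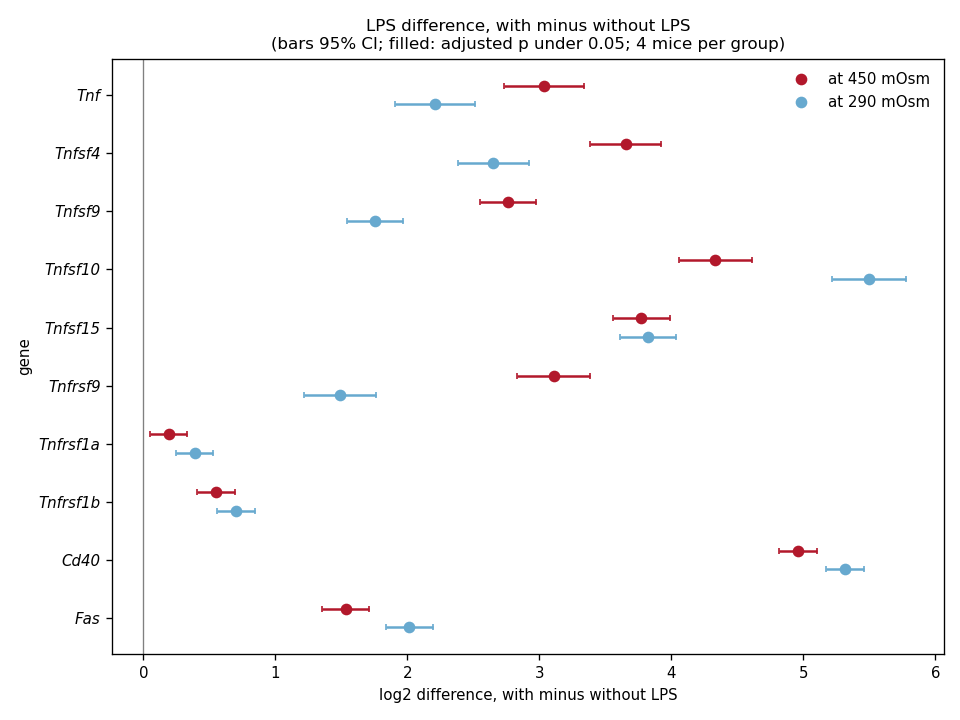
LPS differences (with minus without LPS, log2, horizontal axis) of the 10 genes at 450 mOsm and at 290 mOsm, with 95% confidence intervals from 4 mice per group. Tnf, Tnfsf4, Tnfsf9 and Tnfrsf9 lie further right at 450 mOsm, and Tnfsf10, Cd40 and Fas further right at 290 mOsm.

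Of the other family ligands, 6 of the 11 on the array were tested. With LPS, salt raised 1 and lowered 2 of them, against 38.6% called among all genes. Tnfsf8, the CD30 ligand, had a group mean of 9.71 at 450 mOsm with LPS, against 8.84 at 290 mOsm with LPS, a rise of 0.87 ± 0.18 (adjusted p = 0.000748), and 6.43 and 6.35 at the same osmolarities without LPS. Ltb, the membrane subunit of lymphotoxin, fell to 7.06 at 450 mOsm with LPS, against 8.15 at 290 mOsm with LPS, a difference of -1.10 ± 0.10 (adjusted p = 1.48e-07). LPS raised Ltb by 0.80 ± 0.10 at 290 mOsm, while at 450 mOsm its LPS difference of -0.04 ± 0.10 was not called. Tnfsf13b, or BAFF, a survival factor of B cells, fell by 0.32 with salt under LPS (adjusted p = 0.0132). The list's median salt difference with LPS was 0.12.

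Among the other receptors 14 of 23 were tested, of which salt raised 5 and lowered 2 with LPS, and raised 6 and lowered 1 without, against 38.6% and 44.3% called among all genes, so the counts are near the background. Tnfrsf23 and Tnfrsf22, decoy receptors of Tnfsf10 in the mouse, rose by 0.53 ± 0.08 and 0.46 ± 0.08 with salt under LPS. Tnfrsf26, encoded by another gene of the family, rose by 0.96 ± 0.10 (adjusted p = 4.41e-07). Tnfrsf14, the receptor known as HVEM, rose by 0.52 ± 0.07 with salt without LPS but fell by 0.23 with LPS, with an interaction of -0.75 ± 0.09 (adjusted p = 1.33e-05). Tnfrsf11a, or RANK, fell by 0.76 with salt at rest (adjusted p = 1.13e-08), and its difference with LPS was 0.05 ± 0.06. Tnfrsf21, known as death receptor 6, was lowered by LPS, by -1.78 ± 0.06 at 450 mOsm and -1.22 ± 0.06 at 290 mOsm.

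Inhibitors that restrain signalling from these receptors were called higher with salt under LPS and lower without it, for part of the list each time. Of 12 tested, 6 rose and none fell with salt under LPS, and none rose and 5 fell without LPS. Among all genes 16.8% were called higher with LPS, and 23.7% were called lower without it. Tnfaip3, or A20, an enzyme that edits ubiquitin on signalling proteins, was at 12.12 at 450 mOsm with LPS, against 11.72 at 290 mOsm with LPS, a rise of 0.40 ± 0.10 (adjusted p = 0.0047), and at 8.99 and 9.90 at the same osmolarities without LPS, a fall of -0.91 ± 0.10 (adjusted p = 1.65e-06). Its interaction was 1.30 ± 0.14 (adjusted p = 4.11e-06). Zfp36, which binds the Tnf message and speeds its decay, was lower with salt at rest by -0.54 ± 0.06 (adjusted p = 3.05e-06), and its difference with LPS of -0.14 ± 0.06 was not called (adjusted p = 0.0998). Bcl3, a nuclear partner of NF-kappaB subunits, rose by 0.36 ± 0.08 with salt under LPS (adjusted p = 0.0023), and Zc3h12a, an RNase that degrades cytokine messages, rose by 0.28 ± 0.07 (adjusted p = 0.00372). The list's median salt difference was 0.24 with LPS and -0.13 without, beside 0.00 for all genes.

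**Figure D4:**
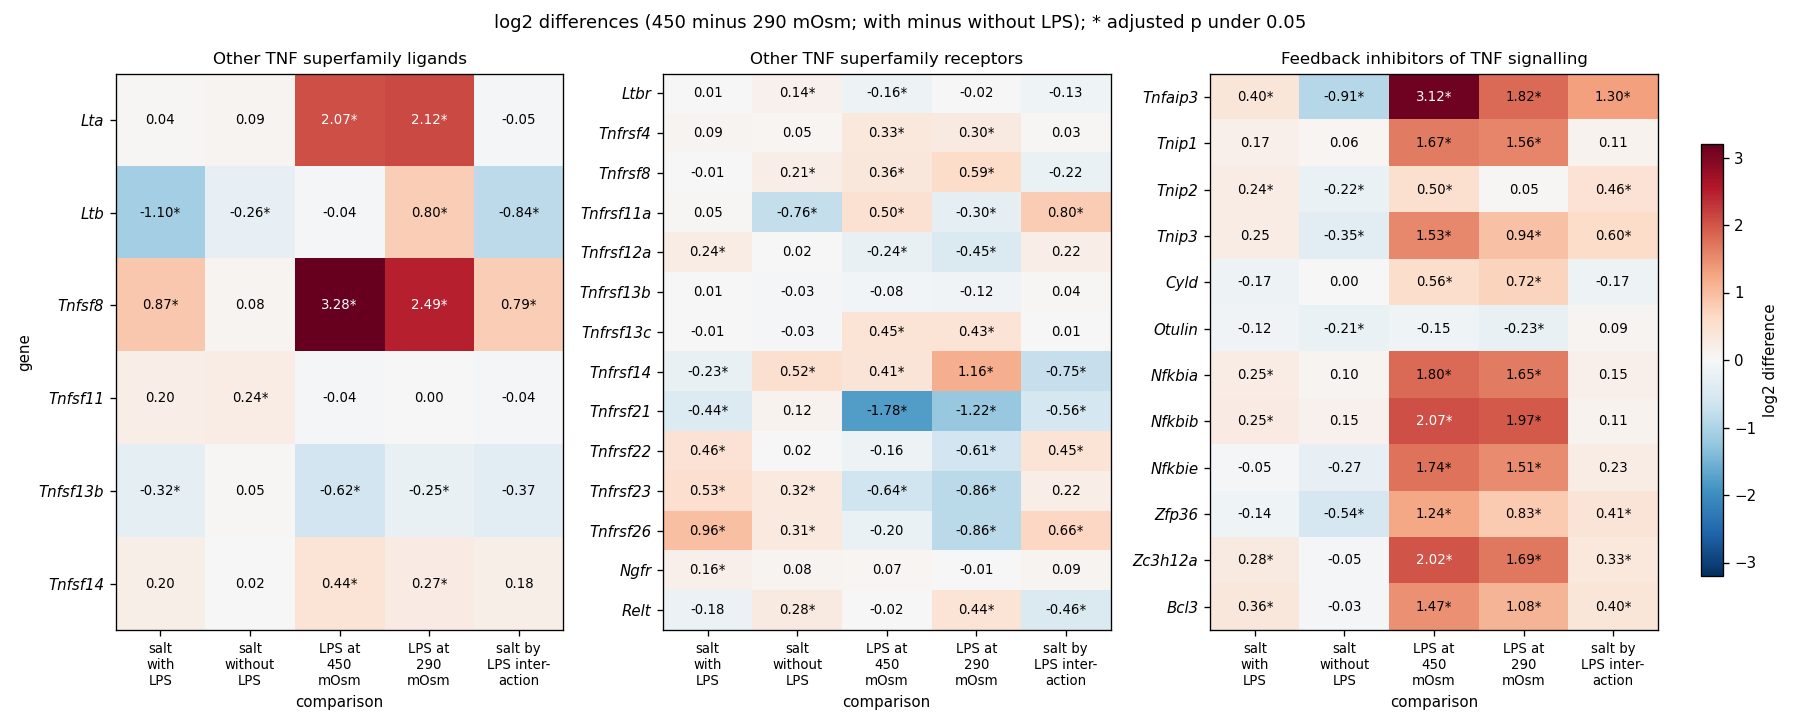
Log2 differences of the other family ligands, the other receptors and the feedback inhibitors (rows) in the 5 comparisons (columns), coloured from blue (lower) to red (higher), with an asterisk where the adjusted p is under 0.05. In the salt columns Tnfaip3 is at 0.40 with LPS and -0.91 without, and Ltb is the lowest ligand at -1.10.

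Adaptors and kinases that join the receptors to NF-kappaB and MAP kinases mostly rose with LPS. Of 20 tested, 14 rose and 3 fell with LPS at 450 mOsm, and 15 rose and 2 fell at 290 mOsm, with medians of 0.86 and 0.60. Among all genes 26.4% were called higher with LPS at each osmolarity. Salt raised 4 and lowered 1 under LPS and raised 8 and lowered 3 without it, against 38.6% and 44.3% called among all genes. Traf1, an adaptor that binds Tnfrsf9 among others, was higher in salt both with LPS, by 0.42 ± 0.06 (adjusted p = 4.74e-05), and without, by 0.69 ± 0.06 (adjusted p = 1.58e-07). Map3k14, the NIK kinase of the alternative NF-kappaB pathway, rose by 0.43 ± 0.09 with salt under LPS (adjusted p = 0.000905). Traf5 fell by 0.55 with salt at rest (adjusted p = 1.85e-06), and its LPS response was larger at 450 mOsm, with an interaction of 0.70 ± 0.09 (adjusted p = 1.79e-05).

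Of 11 genes of TNF processing and release, salt raised 1 and lowered 3 with LPS, and raised 2 and lowered 3 without, near the 38.6% and 44.3% called among all genes. The gene that rose in both was Furin, a protease that cuts precursor proteins into active forms, with a group mean of 12.19 at 450 mOsm with LPS against 11.00 at 290 mOsm with LPS. That difference was 1.19 ± 0.07 (adjusted p = 3.56e-10). Adam17, the protease that sheds Tnf from the membrane, was lower with salt under LPS by a small -0.20 ± 0.06 (adjusted p = 0.0186). Rhbdf2, which brings Adam17 to the cell surface, rose with LPS by 1.44 ± 0.06 at 450 mOsm and 1.47 ± 0.06 at 290 mOsm. In the death receptor pathway 9 genes were tested, of which salt raised 2 and lowered 1 with LPS and raised 1 and lowered 3 without, also near those shares. Cflar, a brake on caspase-8, rose with LPS by 2.71 ± 0.07 at 450 mOsm and 2.35 ± 0.07 at 290 mOsm, and Casp8 rose with salt by 0.25 ± 0.05 under LPS (adjusted p = 0.000367).

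The genes whose pattern over the 16 arrays came closest to each member, by the root mean square difference after centring each gene on its own mean, were also listed. A smaller value means a closer pattern, and it depends on how much a gene varies. For Tnfrsf9 they were Mt2 (0.27), a metallothionein that binds metal ions, then Tnfsf9 (0.37), the ligand of Tnfrsf9, and Ccl8 (0.38). For Tnfsf9 they were Sipa1l1 (0.11), Ier3 and Ccl8, and not Tnfrsf9. For Tnfsf4 they were Tnfsf8 (0.27), Ptges and Tma16. Tnf was followed by Gpr84 (0.23), Gadd45b and Tnfaip3. Tnfsf10 lay nearest to Ifit2 (0.17), an interferon-induced gene, then Ms4a4c and Cmpk2, and Cd40 to Cmpk2 (0.18), Ifi208 and Il1b. Fas lay nearest to Mfsd7a (0.11), Sod2 and H2-Q4, and Tnfsf15 to Socs3 (0.25), Upp1 and Nt5c3. Tnfrsf1a and Tnfrsf1b, which varied least, lay nearest to Cnppd1 (0.047) and Irak2 (0.073).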

How the data were processed

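Each of the 16 cultures gave total RNA for 1 Affymetrix Mouse Gene 1.0 ST array. The deposited values are log2 expression of 22549 probe sets, made by the authors with RMA in the oligo package, per the submitters' processing notes. No version or build is given in the sources used here. The common scale of RMA can hide part of a general rise or fall of transcripts, although the deposited array medians still differed, from 6.78 to 6.93.

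Platform annotation gave 1 symbol for 20646 probe sets, several for 551 and none for 1352. The highest-mean probe set stood for a gene. Probe sets with fewer than 4 arrays over 6.83, the overall median, were left out, and 10236 genes remained. Limma 3.58.1 in R 4.3.3 fitted 1 mean per group on all 16 arrays (12 residual degrees of freedom), with 5 two-sided contrasts and Benjamini-Hochberg adjustment over the tested genes. Tests on simulated arrays with 200 changed genes among 10236 recovered 94.5% of changes of log2 0.5 for salt with LPS and 79.5% for the interaction, and 6.44% and 4.79% of the calls were false. For changes of log2 1 they recovered 99.5% and 98%, with 10.8% and 5.31% of the calls false. The simulated arrays had independent noise, no mouse effect and fewer changed genes than were called in the data. These rates hold for that setting only and do not give the sensitivity of the real comparisons.

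Members and gene lists were chosen with earlier results of these data known. From each pathway list the text names part of the genes with the up to 3 largest called differences in each direction and contrast, and partners of members beyond that rule are named as such. Nearest-pattern genes are the 3 with the smallest distance to a member.

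The mouse identifier in the labels pairs arrays across groups. For 24 pairs of arrays from 1 mouse, deviations from the group means had correlations across genes between -0.146 and 0.433, with a median of 0.0953. For pairs from different mice the median was -0.0351. Alternatives were a replicate block for the mouse, a random mouse term, other filters, normalizations and variance models, array weights, averaged probe sets, fits of the compared groups alone, and omission of 1 mouse or 1 array at a time. Promoter windows are the 250 bases before RefSeq starts on GRCm38.p6. The number of arrays limits the precision. Figures were drawn with matplotlib.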

Additional observations from a re-analysis of the deposited data

Results flagged for a closer look

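The salt difference was not the same with and without LPS for 7 of the 10 members, by the interaction term of limma. That term was called for 21.1% of all tested genes. The members were chosen with earlier results of these data known, so the count is a description and no test of the family. The interaction was 1.62 for Tnfrsf9, 1.01 for Tnfsf9, 1.00 for Tnfsf4 and 0.83 for Tnf. It was -1.16 for Tnfsf10, -0.48 for Fas and -0.35 for Cd40. Those of Tnf, Fas and Cd40 were no longer called when certain mice were left out: Tnf was then 0.61 without mouse 2, Fas was -0.44 without mouse 1, and Cd40 was -0.32, -0.38 and -0.29 without mouse 1, 2 or 3. The interactions of Tnfsf4, Tnfsf9 and Tnfsf10 rest on dim levels without LPS. In Fas, the 450 mOsm array with LPS of mouse 4 lay low at 10.83, while its nearest neighbour was at 10.91. It was the single array that lay far from its group among 40 groups looked at, and chance gives about 1 in 20.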

How the results depend on the processing

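Over 31 settings the 10 members gave 1550 values. Of these, 1533 kept their direction and their side of the threshold, 9 lost the call, 3 gained it and 5 changed sign. Part of this agreement was fixed in advance. Each member had 1 probe set, so averaged probe sets and other filters could not change its difference. A mouse block or another variance model also left the difference as it was. Omission of 1 array left the difference between 2 other groups unchanged. The count is therefore no measure of robustness. The sign changes were all in differences that were not called and came from leaving out 1 mouse or 1 array. For salt without LPS these settings gave Tnfsf4 from -0.0088 (without replicate 3) to 0.33, Tnfsf15 from -0.023 (without the 290 mOsm array of replicate 3) to 0.22 and Tnfrsf1a from -0.012 (without replicate 1) to 0.13. The Tnfsf15 interaction ran from -0.18 to 0.068, and was 0.04 without replicate 3. The replicate block of the mouse left 4 members called for salt under LPS, 5 for salt at rest, 10 for LPS at each osmolarity and 7 for the interaction, and changed no call of a member. Genes called for the interaction numbered 2161, and leaving out 1 mouse or array gave 1383 (without replicate 2) to 2266. The cause of these changes was not tested, beyond the smaller number of arrays. Scaling moved the balance of directions: with each array centred on its median, salt without LPS called 1335 genes higher and 3047 lower, against 2104 and 2426, and cyclic loess turned the LPS calls at 290 mOsm to 3857 higher and 3736 lower, against 2702 and 4819, and at 450 mOsm to 3722 and 3660, against 2707 and 4641. It moved the median of all genes for LPS at 290 mOsm to 0.02, against -0.11. Dim levels near the background limit the size of the differences of Tnfsf4, Tnfsf9 and Tnfsf10 without LPS.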

Other observations

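Of 9 genes of death receptor signalling, salt changed 3 with LPS and 4 without, near the 38.6% and 44.3% called among all genes. The values of some of them follow. Bcl2l1, which protects cells from apoptosis, fell by 0.44 with salt without LPS (adjusted p = 8.26e-05), while its difference of 0.17 ± 0.07 with LPS was not called, and the interaction was 0.61 ± 0.10 (limma, adjusted p = 0.000224). Mlkl, the executor of necroptosis, rose with LPS by 2.67 ± 0.09 at 450 mOsm and 2.43 ± 0.09 at 290 mOsm. Ripk3, the kinase that activates Mlkl, was lower with LPS, by -0.64 ± 0.08 at 450 mOsm and -0.79 ± 0.08 at 290 mOsm, and was 0.32 ± 0.08 higher with salt under LPS (adjusted p = 0.00282). Bid, which links caspase-8 to mitochondria, fell by 0.31 with salt under LPS (adjusted p = 0.00477).

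In the kinase branch, Map3k8, or Tpl2, rose by 0.38 ± 0.06 with salt without LPS (adjusted p = 4.91e-05), and its difference with LPS was -0.12 ± 0.06, which was not called. Its interaction was -0.51 ± 0.08 (adjusted p = 0.00021), with LPS differences of 0.88 ± 0.06 at 450 mOsm and 1.39 ± 0.06 at 290 mOsm. Ikbkg, the scaffold of the IkappaB kinase, fell by 0.38 with salt without LPS (adjusted p = 0.00011). Adam10, a membrane protease related to Adam17, was lower with LPS at both osmolarities, by -1.47 ± 0.06 at 450 mOsm and -1.20 ± 0.06 at 290 mOsm. What links these changes to the 10 members was not tested.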
